A study of Mus musculus with 12 samples.

Results

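The genes described here are 30 genes of cholesterol and fatty acid synthesis, picked by symbol from the 18514 genes of the count table: 7 enzymes from acetyl-CoA through mevalonate to farnesyl diphosphate, 11 enzymes from squalene to cholesterol, 4 sterol regulators and 8 genes of fatty acid synthesis. All 30 were in the table and all 30 passed the filter on low counts, which kept 15484 genes. RNA was sequenced from colorectal tissue of male C57BL/6 mice, bought at 4 weeks of age, with 1 library from each of 12 mice and 3 mice in each of 4 groups. Ctrl mice were neither treated nor swum. Model mice were injected once with the carcinogen azoxymethane (AOM, 10 mg/kg) and drank 2% dextran sulfate sodium (DSS), which injures and inflames the colon lining, in 3 cycles of 7 days, each with 2 weeks of water after it. Ctrl_Swim mice swam, for 20 min per day at first and then 90 min per day, and received no AOM/DSS. Model_Swim mice had both swimming and AOM/DSS. Swimming began 2 months before the experiment and went on daily to its end. Mice that did not swim were placed in shallow water in the same container. Mice in each group came from a larger number of treated animals, and each library is labelled colorectal tissue, with no separation of tumour or epithelium described.

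Cholesterol is built from acetyl-CoA by way of mevalonate, farnesyl diphosphate and squalene, and fatty acids are built from the same acetyl-CoA by fatty acid synthase after carboxylation to malonyl-CoA. The SREBP transcription factors, made by Srebf1 and Srebf2, switch these enzymes on when sterols in the endoplasmic reticulum run low, and Insig proteins hold SREBP back when sterols are plentiful. In the gut, epithelial cells make sterol for their own renewal and take up more from the lumen, while adipocytes and sebaceous glands are known for large amounts of the fatty acid desaturases.

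Promoter windows of 250 bases before and 50 bases after the annotated start were found for 24 of the 30 genes in RefSeq's annotation of GRCm38.p6, 30 windows in all since some genes have several starts. Fdps, Fdft1, Sqle, Stard4, Scd1 and Scd2 had no entry in that table. The sterol response element form TCACCCCAC and the looser TCACNCCAC were searched on both strands, and each was found in Hmgcs1 alone. Over the 27025 genes with a window, 0.614% held the first and 1.44% the second. The CCAAT box, to which NF-Y binds, was found in at least 1 window of 21 of the 24 genes (87.5%), against 41.1% of all genes with a window and 42.2% of the 11771 such genes that passed the filter on counts. GGGCGG, an Sp1 form, was found in at least 1 window of 20 of the 24 genes (83.3%), against 38.2% of all genes and 64.0% of those that passed. These matches describe letters and were not tested as binding sites. Upstream stretches of 3 genes are shown, each for its own reason: Hmgcs1 has the single sterol response element match, Mvk has CCAAT most often in the printed stretch, and Ebp has the smallest p-value of the 30 genes between Model and Ctrl. Each gives the 250 bases before the start in GRCm38.p6, read along the gene's strand, with capitals for TCACCCCAC and for CCAAT or its reverse complement ATTGG.
Hmgcs1, chr13:119690101-119690350, plus strand: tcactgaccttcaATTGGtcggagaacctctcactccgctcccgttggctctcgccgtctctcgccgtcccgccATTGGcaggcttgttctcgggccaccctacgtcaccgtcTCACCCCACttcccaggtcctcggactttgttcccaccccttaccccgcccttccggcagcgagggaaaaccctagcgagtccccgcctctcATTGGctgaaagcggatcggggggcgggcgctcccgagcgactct
Mvk, chr5:114444019-114444268, plus strand: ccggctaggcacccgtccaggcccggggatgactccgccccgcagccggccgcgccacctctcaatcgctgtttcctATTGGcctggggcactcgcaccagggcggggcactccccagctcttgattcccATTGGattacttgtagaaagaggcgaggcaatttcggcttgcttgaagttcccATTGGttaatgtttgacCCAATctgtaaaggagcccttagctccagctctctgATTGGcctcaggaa
Ebp, chrX:8193513-8193762, minus strand: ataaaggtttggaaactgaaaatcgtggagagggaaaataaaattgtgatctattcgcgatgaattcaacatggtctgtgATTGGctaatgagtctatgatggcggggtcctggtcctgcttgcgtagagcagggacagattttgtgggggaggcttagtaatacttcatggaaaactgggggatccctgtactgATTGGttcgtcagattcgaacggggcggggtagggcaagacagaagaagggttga
In Hmgcs1 the sterol response element match lies at bases -137 to -129 from the start, with CCAAT boxes on either side of it.

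Several facts of the whole series touch these values. Total counts lay between 17256953 and 19451055 per library, and the 30 genes had from 374 to 28596 counts each in any mouse. Genes of colon epithelium were present in all 12 libraries, with sums of 5438 to 20082 CPM, lowest in Model 1. Pancreatic acinar genes summed to 50470 CPM in Model 1 and 24693 CPM in Model 3, against 100.1 to 449 CPM in the other 10 libraries. Hox genes that mark distal colon position summed to 20.5 CPM in Model 3, against 251 and 245 CPM in Model 1 and Model 2. In the other groups they summed to 77.1 to 179 CPM. Squamous epithelium genes summed to 575, 1475 and 25.6 CPM in Model and 11.0 to 16.1 CPM in Ctrl, 8 of 11 being called higher, against 16.5% of all genes. They summed to 62.5, 6.91 and 401 CPM in Ctrl_Swim and 143, 1000 and 1080 CPM in Model_Swim. Their part in the values of the 30 genes was not tested directly. Fits with the acinar and distal colon lists as covariates are given in the last section. Without Model 1 and Model 3, a choice made after seeing the data, the number of the 30 genes called lower went from 11 to 8 in Model vs Ctrl, with 1 called higher in either case, from 1 to 7 in Ctrl_Swim vs Ctrl and from 0 to 2 in Model_Swim vs Ctrl_Swim. The number called higher went from 0 to 2 in Model_Swim vs Model and from 3 to 6 in Model_Swim vs Ctrl_Swim, and the number in the interaction from 0 to 4. Over all genes, the same choice took the number called in either direction from 5066 to 5213 in Model vs Ctrl, from 150 to 604 in Ctrl_Swim vs Ctrl, from 11 to 569 in Model_Swim vs Model, from 802 to 2153 in Model_Swim vs Ctrl_Swim and from 0 to 917 in the interaction. Among the 30 genes, 8 overlap another protein-coding gene in the GENCODE annotation of GRCm38, 2 of them (Fdps and Tm7sf2) on the same strand and 6 on the opposite strand (Mvd, Fdft1, Cyp51, Srebf1, Acss2 and Acaca), and Acat2 has a close paralog. The kit marks strand, but how strand entered the counting is not given in the sources used here, so values of these genes are uncertain to that degree.

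Per length of transcript, the genes differed widely in level. In Ctrl mice the mean FPKM (fragments scaled to transcript length and library size) was highest for Scd2, at 183 ± 36.7 (SD, n = 3), followed by Hmgcs1, the synthase that commits acetyl-CoA to the pathway, at 125 ± 18.1. Msmo1 at 98.4 ± 12.2, Fdps at 97.0 ± 10.8 and Acly at 94.3 ± 8.99 did not differ beyond their spread. Hsd17b7 was lowest at 6.83 ± 0.740. Values in single mice are given below in CPM, counts scaled to library size (TMM), which compares mice for one gene but not genes with each other.

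In AOM/DSS mice against untreated mice (Model vs Ctrl), sterol synthesis transcripts were modestly lower and one desaturase transcript was several times higher. Of the 30 genes, 11 were lower at an adjusted p under 0.05, against 16.2% of all genes tested, and 1 was higher, against 16.5% of all genes. Of the 11, 9 belong to the 18 enzymes from Acat2 to Dhcr7, whose median log2 fold change was -0.32, with 17 of the 18 below 0. Over all genes tested the median was 0.01 and 49.5% lay below 0. The study also applied a 2-fold limit, which Scd1 alone of the 30 genes passed, against 7.43% of all genes, and none of the lower ones did. On the FPKM scale, with limma on log2(FPKM + 1), 2 of the 30 genes were called lower, against 10.9% of all genes fitted.

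Among the early enzymes, Mvk, which phosphorylates mevalonate, measured 44.6, 39.9 and 46.5 CPM in Ctrl mice and 31.9, 30.8 and 35.3 CPM in Model mice. The groups did not overlap, all Model mice being lower, with a log2 fold change of -0.42 ± 0.10 (SE; edgeR's quasi-likelihood test, adjusted p = 0.0102). Fdps, which makes farnesyl diphosphate, measured 142, 139 and 170 CPM in Ctrl and 125, 113 and 115 CPM in Model, again without overlap (-0.36 ± 0.10, edgeR's adjusted p = 0.0163). Pmvk, the kinase after Mvk, fell by 0.29 on the log2 scale (SE 0.09, adjusted p = 0.0362 by edgeR) and Idi1, the isopentenyl diphosphate isomerase, fell by 0.48 (SE 0.17, adjusted p = 0.0478 by edgeR). Hmgcs1 at -0.34 (adjusted p = 0.0719 by edgeR), Mvd at -0.28 and Acat2 at -0.13 did not pass.

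In the later steps, Ebp, the sterol isomerase, measured 88.5, 88.8 and 88.8 CPM in Ctrl mice and 67.9, 74.3 and 60.6 CPM in Model mice. Its Ctrl values were nearly equal and its Model values were all lower, by 0.39 on the log2 scale (SE 0.07, edgeR's adjusted p = 0.00329). Nsdhl, a sterol dehydrogenase of C4 demethylation, measured 71.3, 67.9 and 78.5 CPM in Ctrl and 63.0, 51.1 and 57.5 CPM in Model (-0.34 ± 0.09, adjusted p = 0.0144 by edgeR). Sqle, the squalene epoxidase that is a rate-setting step of the later pathway, measured 173, 163 and 207 CPM in Ctrl and 146, 146 and 144 CPM in Model (-0.32 ± 0.10, adjusted p = 0.026 by edgeR). The Model mice were close to each other for Sqle, and the spread lay among the Ctrl mice. Cyp51, the lanosterol demethylase, fell by 0.37 (SE 0.11, adjusted p = 0.0308 by edgeR) and Msmo1, the C4 methyl oxidase, fell by 0.41 (SE 0.14, adjusted p = 0.0485 by edgeR). The remaining enzymes did not pass: Fdft1 was at -0.30, Lss at -0.32, Tm7sf2 at -0.12, Sc5d at -0.05, Dhcr7 at -0.0042 and Hsd17b7, the single enzyme above 0, at 0.04.

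Of the sterol regulators, Stard4, a cytosolic sterol carrier, had the largest decrease among the 30 genes in this comparison. It measured 301, 310 and 336 CPM in Ctrl mice and 185, 185 and 253 CPM in Model mice (-0.61 ± 0.12, adjusted p = 0.00471 by edgeR). All Model mice were lower, Model 3 least so. Srebf2, which makes the SREBP that serves sterol synthesis, measured 320, 300 and 334 CPM in Ctrl and 299, 320 and 315 CPM in Model, and the groups overlapped (-0.03, 95% interval -0.17 to 0.11). Srebf1, which serves fatty acid synthesis, measured 118, 109 and 132 CPM in Ctrl and 170, 126 and 106 CPM in Model (0.17, 95% interval -0.16 to 0.49). Insig1, the SREBP anchor and itself an SREBP target, ran from 112 to 183 CPM in Ctrl and from 99.1 to 141 CPM in Model (-0.35, 95% interval -0.79 to 0.08). Neither SREBP transcript nor Insig1 passed the test between these groups.

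**Figure D1:**
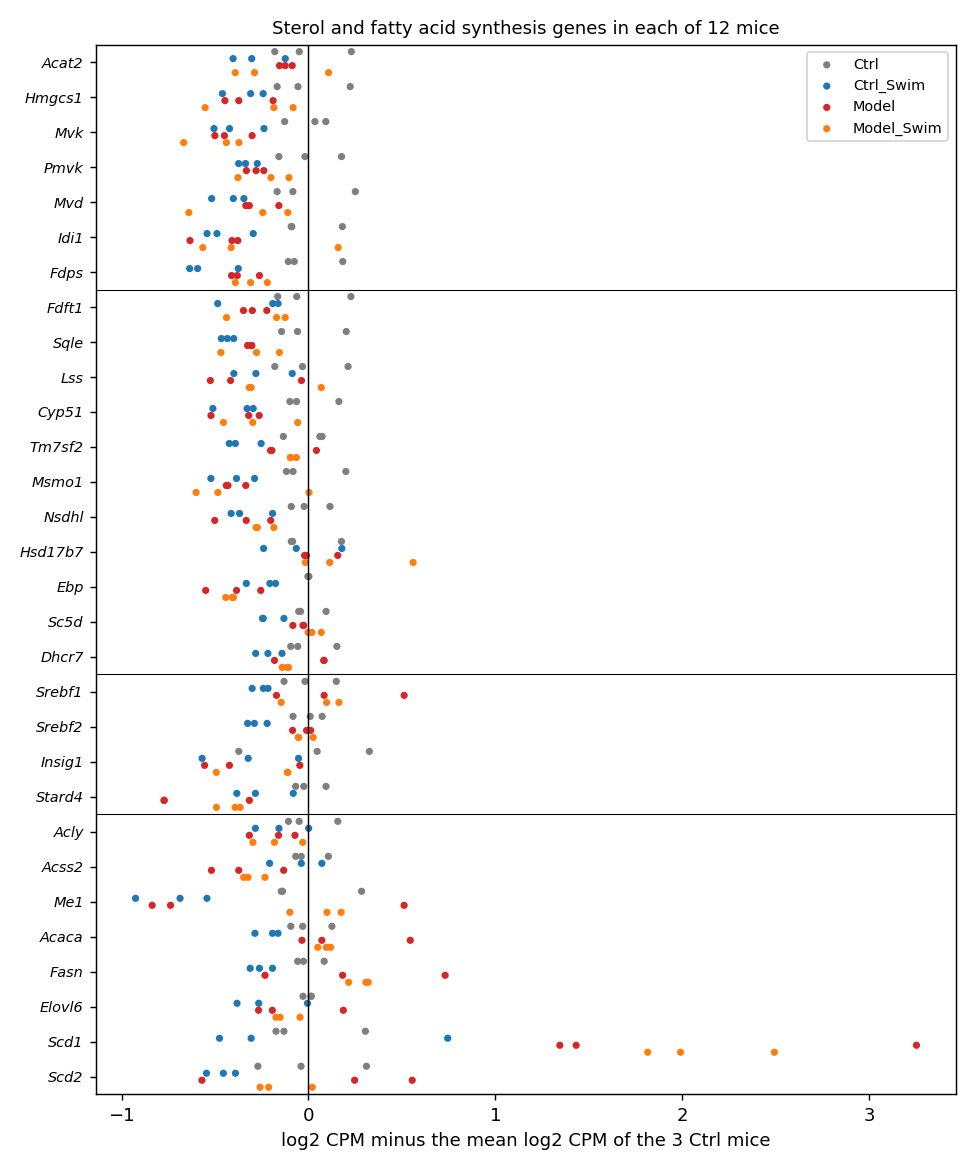
Each point is 1 mouse, placed by its log2 CPM minus the mean log2 CPM of the 3 Ctrl mice, for the 30 genes in 4 blocks from top to bottom (mevalonate, squalene to cholesterol, sterol regulators, fatty acid synthesis), with colour for the group. Most sterol enzymes of the Model, Ctrl_Swim and Model_Swim mice lie left of 0, and Scd1 in AOM/DSS mice lies far to the right.

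Fatty acid synthesis did not move as 1 block. Acss2, which makes acetyl-CoA from acetate, measured 143, 140 and 158 CPM in Ctrl mice and 102, 134 and 113 CPM in Model mice (-0.33 ± 0.10, adjusted p = 0.0284 by edgeR), all Model mice being lower. Fasn, the fatty acid synthase, measured 392, 401 and 433 CPM in Ctrl and 464, 348 and 678 CPM in Model, with 1 Model mouse below all Ctrl mice and the others above (0.28, 95% interval -0.11 to 0.67). Acly, the citrate lyase, at -0.18, Me1, the malic enzyme, at -0.23, Acaca, the acetyl-CoA carboxylase, at 0.21 and Elovl6, an elongase, at -0.08 did not pass either. Model 3 was the highest of the Model mice in 5 of the 8 genes, among them Me1 at 112 CPM against 46.9 and 43.8 CPM in the other Model mice.

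The desaturases put the first double bond into saturated fatty acids, and the paralogs Scd1 and Scd2 behaved differently. Scd1 measured 84.0, 86.5 and 117 CPM in Ctrl mice and 241, 256 and 904 CPM in Model mice. No Model mouse overlapped the Ctrl mice, Model 3 lying by far the highest, and the fitted log2 change was 2.28 ± 0.51 (4.87-fold, adjusted p = 0.00698 by edgeR). Without Model 3 it was 1.38, still called (adjusted p = 0.00779 by edgeR). Scd2 measured 1014, 864 and 1293 CPM in Ctrl and 1532, 1237 and 702 CPM in Model, so that Model 3, highest for Scd1, was lowest for Scd2 (0.13, 95% interval -0.38 to 0.64). The FPKM ratio of Scd2 to Scd1 was 10.7, 8.86 and 9.79 in Ctrl mice, 5.64, 4.29 and 0.689 in Model mice, 8.80, 10.4 and 3.99 in Ctrl_Swim mice and 2.05, 1.76 and 2.39 in Model_Swim mice. Scd2 reads thus outnumbered Scd1 reads per length in every mouse except Model 3. The Scd paralogs are close in sequence, and how reads shared between them were counted is not given in the sources used here, so single values of either carry that uncertainty.

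Genes of other cell types rich in Scd1 varied between the same mice. Their part in the Scd1 difference was not tested directly, and fits with their lists as covariates are given below. The summed CPM of 10 adipocyte genes ran from 81.4 to 151 in Ctrl, 112 to 150 in Ctrl_Swim, 103 to 425 in Model and 164 to 326 in Model_Swim, and Model 3 was highest. Fabp4, the fatty acid carrier of fat cells and the most abundant of these genes, measured 137 CPM in Model 3 and 25.0 to 52.2 CPM in Ctrl, and Plin4, a lipid droplet protein, was the next most abundant. None of the 10 adipocyte genes passed in Model vs Ctrl. The 7 sebaceous gland genes summed to 1.21 to 1.80 CPM in Ctrl, 16.0, 1.06 and 107 CPM in Ctrl_Swim, 88.9, 110 and 1.09 CPM in Model, and 19.0, 258 and 3.23 CPM in Model_Swim. Within this list Krt79 measured 0.221 to 0.545 CPM in Ctrl and 119 CPM in Model_Swim 2, and Scd3, a paralog of Scd1, 0.109 to 0.221 CPM in Ctrl, where 3 counts make 0.154 to 0.156 CPM, and 85.5 CPM in Model_Swim 2. Ctrl_Swim 2, with a sebaceous sum of 16.0 CPM, measured 76.6 CPM for Scd1, and Model_Swim 1, with 19.0 CPM, measured 377 CPM. Ctrl_Swim 4, with 107 CPM, and Model_Swim 2, with 258 CPM, were the highest of their groups for Scd1, at 159 and 534 CPM. With the adipocyte list as a covariate Scd1 was at 1.65 and still called (adjusted p = 0.0107 by edgeR), and with the sebaceous list, added after seeing the data, at 2.33 and still called (adjusted p = 0.0136 by edgeR). Taking both lists together, also a choice made after seeing the data, left Scd1 at 1.26 (adjusted p = 0.0971 by edgeR), and taking the pancreatic acinar list left it at 1.73 (adjusted p = 0.0898 by edgeR).

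**Figure D2:**
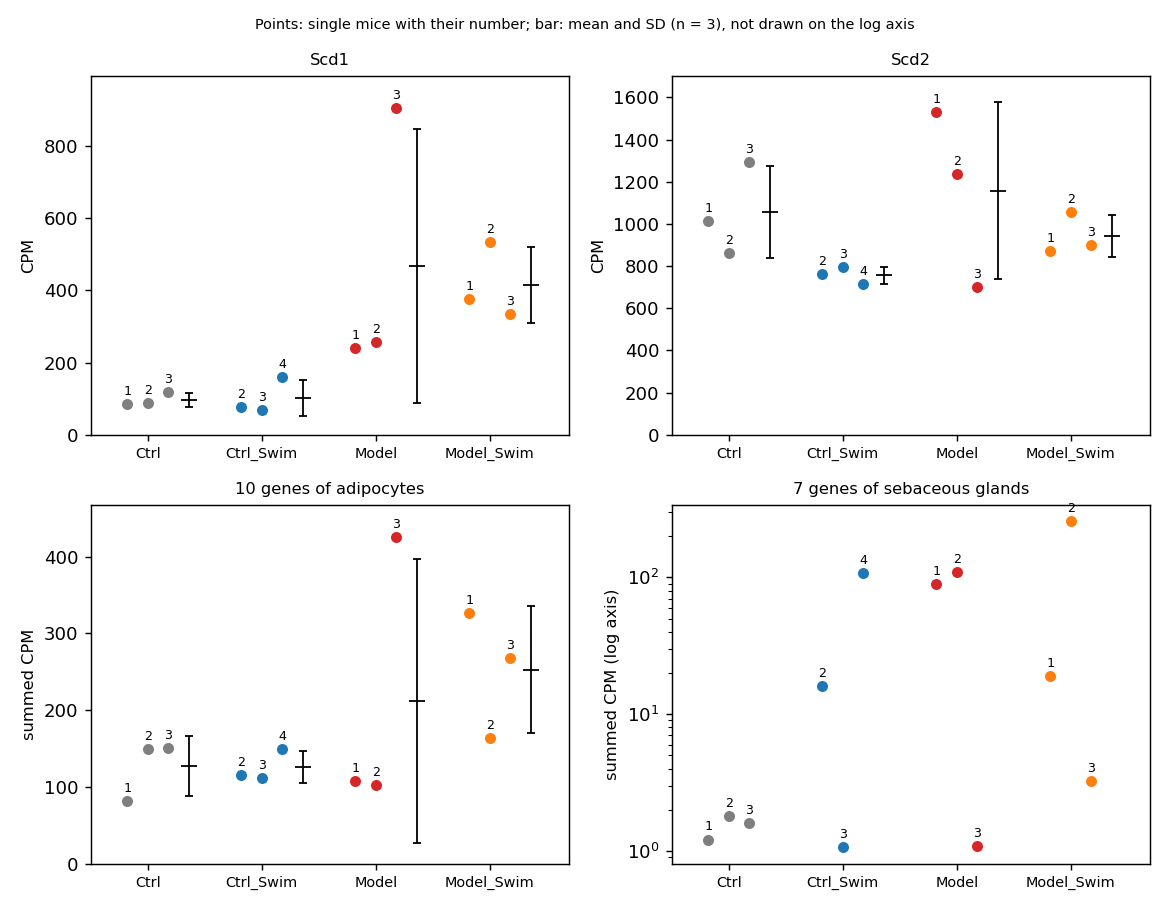
CPM of Scd1 and Scd2 and summed CPM of 10 adipocyte and 7 sebaceous gland genes, by group, each point 1 mouse with its number, the bars mean and SD of 3 mice (no bars on the log axis of the sebaceous panel). Model 3 is highest for Scd1 (904 CPM) and for the adipocyte sum (425 CPM) and lowest of its group for Scd2 (702 CPM) and the sebaceous sum (1.09 CPM).

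The lower sterol enzymes went along with lower epithelial transcripts. Summed over the 18 enzymes, CPM was 2100, 2112 and 2545 in Ctrl mice and 1839, 1788 and 1870 in Model mice, and the groups did not overlap. The 7 general epithelial genes summed to between 12126 and 13787 CPM in Ctrl and between 9120 and 9771 CPM in Model, and 5 of the 7 were lower by the same test. Krt8, the most abundant of them, measured 4718 to 5524 CPM in Ctrl and 3251 to 3327 CPM in Model, and Krt19 measured 2779 to 3266 CPM in Ctrl and 1891 to 2140 CPM in Model. Divided by the epithelial sum, the 18 enzymes were not lower but higher in Model: the ratio was 0.157 to 0.185 in Ctrl and 0.188 to 0.205 in Model. Krt8 and Krt19 are the largest genes of that sum, so the ratio depends mostly on them. Cdh1, of the same list, measured 1191 to 1265 CPM in Ctrl and 1064 to 1317 CPM in Model. With the epithelial list as a covariate, 0 of the 30 genes were called lower and 4 of all genes were called in either direction, in place of 5066. In that fit the median of the 18 enzymes was -0.26, with 16 of the 18 below 0. The sums of the list did not overlap between Ctrl and Model. In bulk tissue, fewer cells of a type and less RNA per cell cannot be told apart.

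Single Ctrl mice weighed on the result. Ctrl 3 was the highest Ctrl mouse in 18 of the 18 sterol enzymes, while it was highest in 32.2% of all genes tested. Without Ctrl 3, 2 of the 30 genes were called lower in place of 11, against 9.85% of all genes in place of 16.2%. The median of the 18 enzymes was then -0.19 with 14 below 0. The count was 4 without Ctrl 1, 7 without Ctrl 2, 6 without Model 1, 3 without Model 2 and 6 without Model_Swim 3, which enters through the shared spread. Of all genes, 10.2%, 9.63%, 15.5%, 10.4% and 13.1% were called lower in these fits, in the same order. Groups without overlap, with Model lower, were found for 13 of the 30 genes, against 23.2% of all genes.

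**Figure D3:**
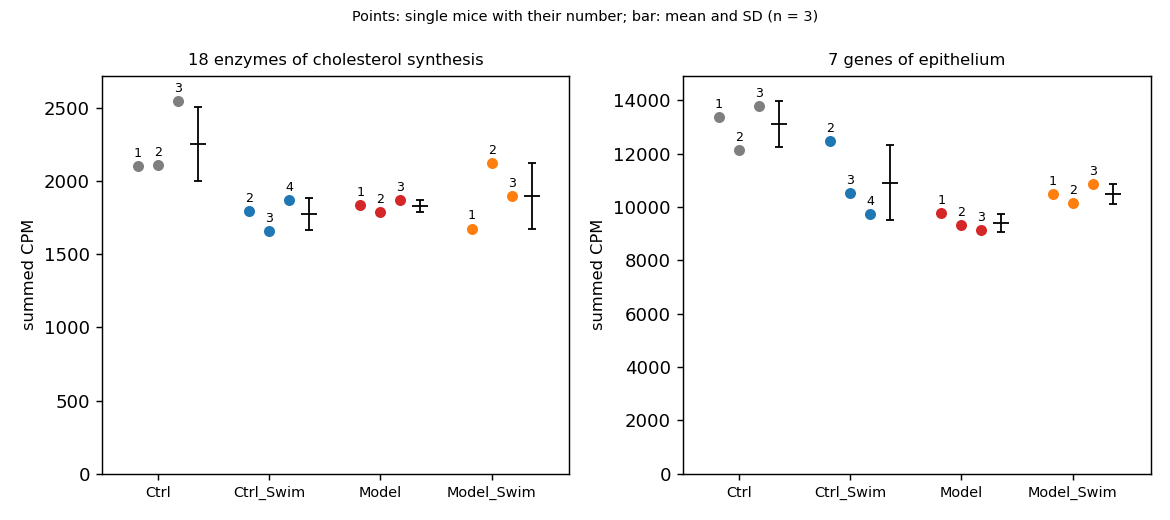
Summed CPM of the 18 cholesterol synthesis enzymes (left) and of 7 epithelial genes (right) by group, each point 1 mouse with its number, the bars mean and SD of 3 mice. In both sums the Model mice lie below the Ctrl mice, and Ctrl 3 is the highest mouse of all 12.

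Swimming in untreated mice (Ctrl_Swim vs Ctrl) went with lower values of nearly all of these genes, by amounts that rarely passed the test. This comparison uses the same Ctrl mice as Model vs Ctrl, Ctrl 3 included, so the comparisons are not independent of each other. One gene was called lower, against 0.801% of all genes, and none was called higher, against 0.168% of all genes. By unadjusted p under 0.05, 17 of the 30 genes passed, against 17.6% of all genes tested. For 29 of the 30 the log2 fold change lay below 0, as did 49.9% of all genes, and for 21 of the 30 every Ctrl_Swim mouse lay below every Ctrl mouse, against 14.9% of all genes. The 18 enzymes summed to 1796, 1660 and 1871 CPM in Ctrl_Swim mice. Proliferation genes summed to 575 to 794 CPM in Ctrl_Swim and 822 to 939 CPM in Ctrl, 1 of 8 being called lower, and clock genes to 846 to 1039 CPM against 747 to 782 CPM, 1 of 14 being called higher and 2 lower. Their part in the lower values was not tested.

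Fdps was the gene called: it measured 96.4, 99.3 and 115 CPM in Ctrl_Swim mice, all below the 139 CPM of the lowest Ctrl mouse (-0.54 ± 0.10, adjusted p = 0.0343 by edgeR). Leaving out any 1 of Ctrl 1, Ctrl 2, Ctrl 3, Ctrl_Swim 2, Ctrl_Swim 3 or a Model_Swim mouse ended that call, with an adjusted p between 0.0618 and 0.159 by edgeR. Sqle measured 133, 130 and 136 CPM, below all Ctrl mice, and missed the threshold (-0.44 ± 0.10, adjusted p = 0.0589 by edgeR). Srebf2 measured 272, 260 and 253 CPM in Ctrl_Swim, below the 300 to 334 CPM of Ctrl (-0.28 ± 0.06, adjusted p = 0.0643 by edgeR). Tm7sf2, a sterol reductase, measured 20.5, 22.5 and 20.02 CPM against 24.5, 28.1 and 28.3 CPM in Ctrl (-0.36 ± 0.09, adjusted p = 0.0955 by edgeR).

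Other members were in the same range of differences. Over the 7 early enzymes the log2 fold changes ran from -0.54 to -0.28, over the 11 later ones from -0.44 to -0.04, over the 4 regulators from -0.33 to -0.25 and over the 8 fatty acid genes from -0.73 for Me1 to 0.08 for Scd1. Insig1 measured 140, 98.2 and 116 CPM in Ctrl_Swim mice, Srebf1 measured 101, 96.6 and 102 CPM, and Fasn measured 357, 341 and 329 CPM. Scd1 measured 76.6, 68.1 and 159 CPM, and Ctrl_Swim 4, the highest, was the Ctrl_Swim mouse with the sebaceous sum of 107 CPM. Scd2 measured 760, 795 and 714 CPM, below all Ctrl mice. Goblet cell genes summed to 14229 to 18455 CPM in Ctrl_Swim and 38834 to 49524 CPM in Ctrl, 3 of the 7 being called lower, while the epithelial sum of 9743 to 12467 CPM overlapped that of Ctrl and none of its 7 genes were called. Divided by the epithelial sum, the 18 enzymes gave 0.144, 0.158 and 0.192 in Ctrl_Swim mice, a range that holds all Ctrl values. DESeq2, the study's tool, called 7 of the 30 genes lower here, against 2.36% of all genes it fitted, and 646 of all genes in either direction.

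**Figure D4:**
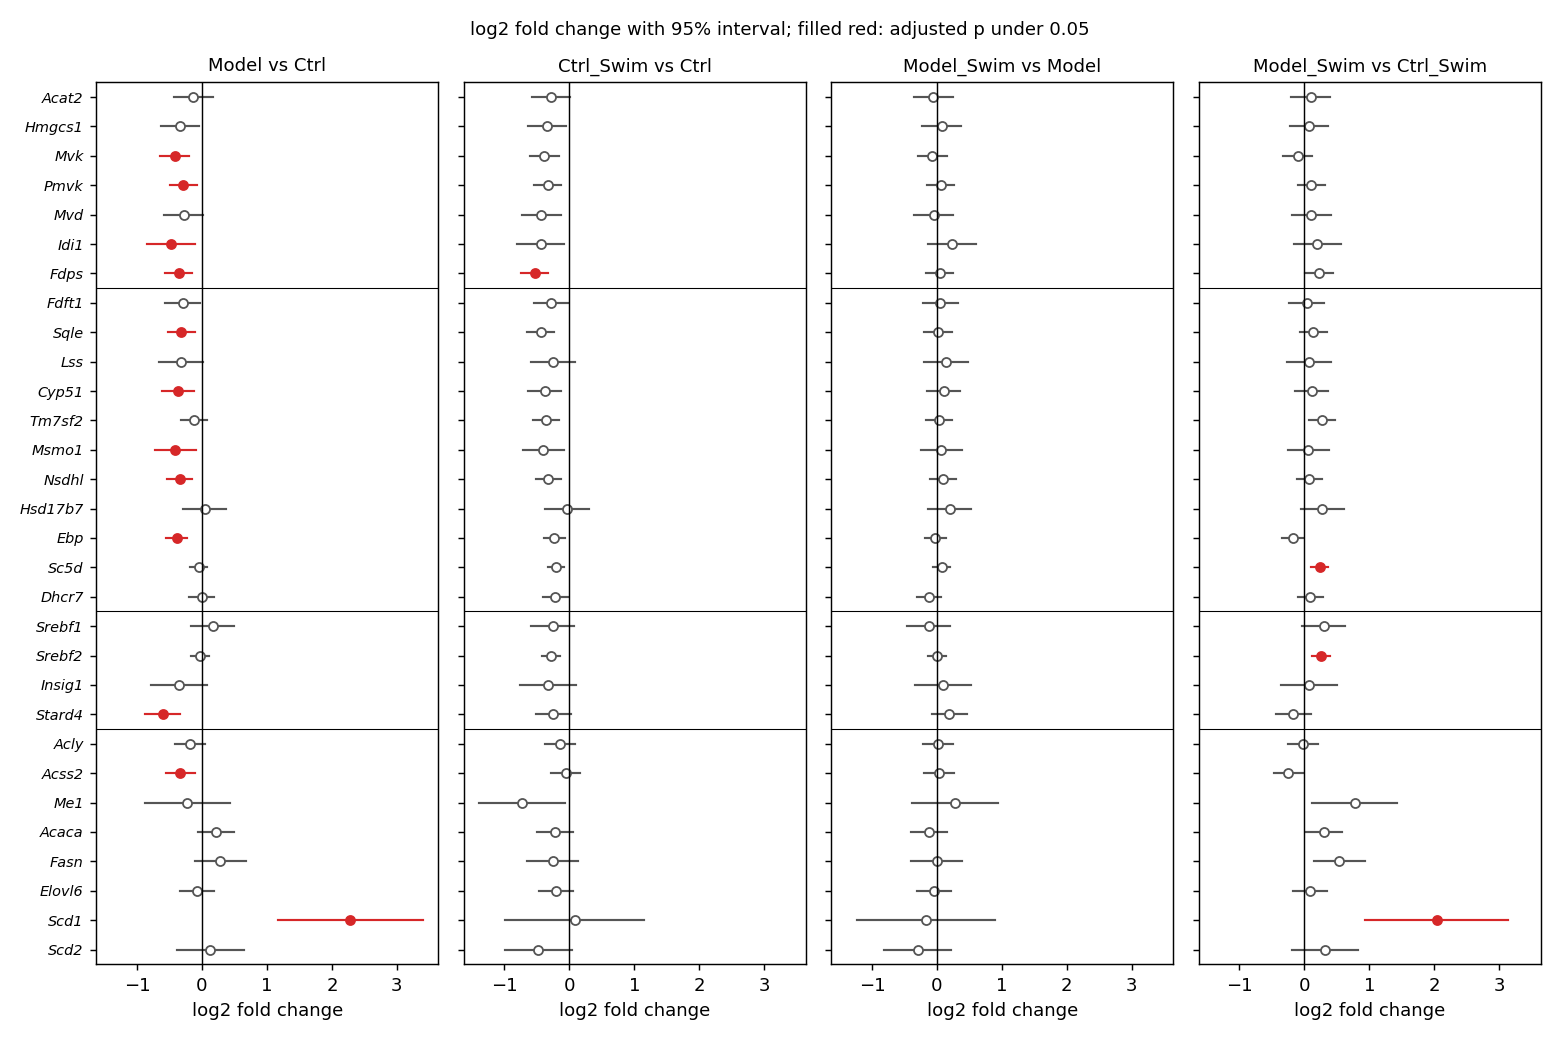
log2 fold change (point) with its 95% interval (line) for the 30 genes in 4 comparisons, filled red where the adjusted p is under 0.05. The first panel has 11 filled points left of 0 and Scd1 right of it, the second has Fdps alone, the third has none, and the fourth has Sc5d, Srebf2 and Scd1 right of 0.

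Swimming in AOM/DSS mice (Model_Swim vs Model) was not accompanied by a called difference in any of the 30 genes, while 0.0710% of all genes were called. At an unadjusted p under 0.05 none of the 30 passed, against 13.6% of all genes, and DESeq2 called 0 of the 30 and 361 of all genes. The log2 fold changes ran from -0.30 for Scd2 to 0.28 for Me1, with a median of 0.03. Stard4 measured 224, 240 and 245 CPM in Model_Swim mice (0.19, 95% interval -0.08 to 0.46). Idi1 measured 48.0, 79.4 and 53.4 CPM against 54.7, 45.8 and 53.5 CPM in Model (0.23, 95% interval -0.13 to 0.60). Dhcr7, the last reductase of the pathway, measured 116, 118 and 119 CPM against 136, 136 and 113 CPM in Model (-0.12, 95% interval -0.31 to 0.07). Hsd17b7, a ketoreductase of C4 demethylation, measured 39.9, 59.5 and 43.7 CPM against 39.8, 45.0 and 40.0 CPM (0.20, 95% interval -0.13 to 0.53). Each of these 4 intervals includes 0. Without Model 3, 2 of the 30 genes were called higher, against 4.3% of all genes fitted in that setting, where 882 genes were called in either direction in place of 11.

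The Model_Swim mice also differed among themselves across the whole pathway. Model_Swim 1 was lowest in 16 of the 18 enzymes and Model_Swim 2 was highest in 14 of 18, while over all genes Model_Swim 1 was lowest in 34.7% and Model_Swim 2 highest in 31.5%. The 18 enzymes summed to 1676 CPM in Model_Swim 1, 2126 CPM in Model_Swim 2 and 1898 CPM in Model_Swim 3, a range that holds all Model values. Without Model_Swim 2, the median of the 18 enzymes in Model_Swim vs Model changed from 0.06 to -0.03. Fdps at 114, 129 and 121 CPM, Sqle at 130, 162 and 149 CPM and Insig1 at 103, 135 and 135 CPM had the same lowest mouse. Scd1 at 377, 534 and 334 CPM stayed above every Ctrl mouse, and Scd2 at 871, 1058 and 900 CPM lay between its Model extremes. Clock genes differed between the 2 AOM/DSS groups, 6 of 14 being higher and 1 lower in Model_Swim, against 0.0646% and 0.00646% of all genes, and between Model and Ctrl, 3 higher and 9 lower, against 16.5% and 16.2%. Their part in the values above was not tested.

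Among swimming mice, AOM/DSS (Model_Swim vs Ctrl_Swim) came with higher values for 3 of the 30 genes, against 3.49% of all genes, and with lower values for none, against 1.69% of all genes. Scd1 was higher by 2.04 ± 0.50 on the log2 scale (4.10-fold, adjusted p = 0.0426 by edgeR). Srebf2 measured 306, 323 and 306 CPM in Model_Swim, above all Ctrl_Swim mice (0.25 ± 0.06, adjusted p = 0.0444 by edgeR). Sc5d, the sterol desaturase, measured 103, 104 and 108 CPM in Model_Swim and 93.9, 86.9 and 86.7 CPM in Ctrl_Swim, without overlap (0.23 ± 0.06, adjusted p = 0.0464 by edgeR). In Ctrl mice Sc5d had measured 99.8, 99.2 and 110 CPM and in Model mice 97.0, 101 and 101 CPM, so the Ctrl_Swim mice were the lowest for this gene.

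Fasn measured 506, 474 and 510 CPM in Model_Swim, above all Ctrl_Swim mice, and did not pass (0.54 ± 0.18, adjusted p = 0.108 by edgeR). Srebf1 measured 108, 127 and 133 CPM in Model_Swim, also above all Ctrl_Swim mice, and did not pass (0.30, 95% interval -0.03 to 0.62). For 10 of the 30 genes, all Model_Swim mice lay above all Ctrl_Swim mice, against 15.9% of all genes. With the adipocyte list as a covariate none of the 3 was called, against 3.24% of all genes called higher. The log2 fold changes were then 0.21 for Sc5d, 0.26 for Srebf2 and 1.34 for Scd1. With the sebaceous list none was called either, against 2.87% of all genes called higher, at 0.24 for Sc5d, 0.25 for Srebf2 and 2.06 for Scd1. The part of either cell type in these differences was not tested directly. Leaving out Ctrl 1, Ctrl 2, Ctrl_Swim 2, Ctrl_Swim 3 or any Model_Swim mouse left 0 calls, against 0.808% to 2.23% of all genes called higher. Leaving out Ctrl 3 or Ctrl_Swim 4 left 1, against 2.25% and 1.86% of all genes. Without Model 3 there were 6, against 5.71% of all genes.

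A test of whether swimming changed the AOM/DSS difference (the interaction) called 0 of the 30 genes, as it called 0% of all genes. Its log2 estimate lay above 0 for 29 of the 30, with a median of 0.32. Over all 15484 genes tested the median was -9.8e-05, with 7743 genes below 0. Of the 30, 13 passed at an unadjusted p under 0.05, against 19.0% of all genes. Fdps had the smallest p, with an estimate of 0.58 ± 0.13 (adjusted p = 0.115 by edgeR), followed by Sqle at 0.46 ± 0.13 (adjusted p = 0.136 by edgeR), Sc5d at 0.28 ± 0.08 and Nsdhl at 0.42 ± 0.13. Nsdhl measured 56.1, 54.3 and 63.4 CPM in Ctrl_Swim and 59.9, 59.6 and 63.7 CPM in Model_Swim. All 4 genes had their highest group mean in Ctrl except Sc5d, whose mean was highest in Model_Swim. DESeq2 called 3 of the 30 genes and 758 of all genes (4.12%).

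Neighbouring parts of lipid metabolism moved in other ways between Model and Ctrl. Of 16 genes for uptake, export and storage of cholesterol, 5 were higher and 2 lower, beside the 16.5% higher and 16.2% lower over all genes, with a median log2 fold change of 0.15. Abca1, which exports cholesterol to lipoproteins, measured 32.5, 37.3 and 32.5 CPM in Ctrl mice and 91.8, 67.4 and 73.7 CPM in Model mice (1.19 ± 0.13, adjusted p = 0.000408 by edgeR). Npc1, which releases cholesterol from lysosomes, measured 64.3, 59.2 and 61.5 CPM in Ctrl and 80.5, 86.6 and 84.8 CPM in Model (0.45 ± 0.07, adjusted p = 0.00196 by edgeR). Both were clearly separated between the groups. Npc1l1, the absorber of luminal cholesterol, measured 2.87, 9.37 and 22.5 CPM in Ctrl and 0.214, 0.708 and 1.55 CPM in Model (-3.81 ± 0.74, adjusted p = 0.00395 by edgeR). In Model_Swim vs Ctrl_Swim, 4 of the 16 were higher, against 3.49% of all genes, with Abca1 at 0.62 ± 0.13 and Npc1 at 0.54 ± 0.07, and none was lower. Macrophage genes, of cells that carry much Abca1, were also higher, 8 of 8 being called in Model vs Ctrl, with sums of 762 to 861 CPM in Model and 394 to 417 CPM in Ctrl, and their part in the Abca1 difference was not tested.

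None of 9 genes for SREBP processing and LXR factors was called between Model and Ctrl. Of 10 enzymes of oxysterols and side branches, 2 were higher and 4 lower, beside 16.5% higher and 16.2% lower over all genes, which is also the background of the lists that follow. Cyp27a1, the sterol 27-hydroxylase, was higher by 0.77 ± 0.12 (adjusted p = 0.0016 by edgeR). Pdss1 and Pdss2, the subunits that draw isoprenoid units into coenzyme Q, were lower, Pdss1 at 45.0, 44.7 and 45.3 CPM in Ctrl and 26.7, 30.8 and 36.9 CPM in Model (-0.52 ± 0.11, adjusted p = 0.00569 by edgeR), and Pdss2 by 0.59 on the log2 scale (SE 0.13). Of 23 genes for activation, elongation and desaturation of fatty acids, 2 were higher and 6 lower, among them Elovl1 at -0.40 ± 0.09, Hacd1 at -0.38 ± 0.09 and Fads3 at 0.42 ± 0.10. Of 14 genes for triglyceride and phospholipid synthesis, 1 was higher and 2 lower: Pnpla3, a lipase and SREBP target, at 1.90 ± 0.57, Dgat1, an acyltransferase of triglyceride synthesis, at -0.32 ± 0.11 and Gpam, which starts glycerolipid synthesis, at -0.28 ± 0.10. Pnpla3 measured 0.717, 0.981 and 2.25 CPM in Ctrl and 2.57, 2.78 and 9.47 CPM in Model, with Model 3 highest as for Scd1. In Model_Swim vs Model and in Ctrl_Swim vs Ctrl, none of the genes in these 5 lists was called.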

How the data were processed

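RNA-seq of colorectal tissue from 12 mice in 4 groups was analysed. Reads had been trimmed (Trimmomatic), mapped to GRCm38.p6 (HISAT2) and assigned to genes (HTSeq-count) by the authors, who deposited raw counts for 18514 genes and FPKM values from Cufflinks, and tool versions and the annotation release are not given in the sources used here. TRIzol is named for extraction in the methods and a mirVana kit in the labels.

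Counts were tested in R 4.3.3 with edgeR 4.0.16: TMM scaling, filterByExpr with a minimum count of 10, a quasi-likelihood fit of the 4 groups, and Benjamini-Hochberg adjustment over the 15484 genes kept. Calls are at an adjusted p under 0.05. The study's limit of a fold change over 2 or under 0.5 was counted separately. CPM is TMM-scaled. FPKM served for levels between genes. Total counts of 17256953 to 19451055 limit counting error only. Each p-value of the main fit weighs a difference against the spread between mice. That spread is estimated over the 4 groups together, with 3 mice in each. The code was tested on simulated data.

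Groups were taken from sample titles. Alternatives were DESeq2 1.42.0, its size factors in edgeR, no filter, the replicate block, limma 3.58.1 on log2(FPKM + 1) (mean FPKM of at least 0.5, or no filter) and on log2(FPKM + 0.1), marker lists as covariates, fits of only the groups compared, and leaving out each mouse. Covariates for the sebaceous, distal colon and paired adipocyte and sebaceous lists, centring on the median of all genes, and leaving out Model 1 with Model 3 were added after seeing the data. Genes and lists were chosen with earlier results of these data known. All 30 genes may be named. Values in every mouse are given for up to 8 genes with the smallest p in Model vs Ctrl, up to 4 in each other comparison, and Srebf1, Srebf2, Insig1, Sqle, Fasn, Scd1 and Scd2. Each other pathway list gives up to 3 genes with the smallest p, and a marker list that is discussed gives its 2 genes of highest CPM. Me1 was singled out after its values were seen.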

Additional observations from a re-analysis of the deposited data

How the results depend on the processing

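Where a single gene was called, its direction was the same under all 29 alternatives, and 0 log2 fold changes reversed. Among these, the fold limit and the centring reuse the main fit and could not reverse a direction. The 3 FPKM fits are close to each other. The number of genes called depended more on the setting. In Model vs Ctrl, the 11 lower calls became 2 with limma on each of the 3 FPKM scales, 3 with the acinar covariate, 0 with the epithelium covariate, 6 in a fit of only the groups compared, 7 with the adipocyte and sebaceous covariates together, 0 with the fold limit, and 2 to 11 on leaving out 1 mouse. Of all genes, 16.2% were called lower in the main fit and 7.83% to 11.1% with limma. The share was 10.3% with the acinar covariate and also with only the groups compared. It was 0.00646% with the epithelium covariate and 6.69% with the paired covariates. Leaving out 1 mouse gave 9.63% to 17.2%. The 1 higher call became 0 with the acinar covariate, with the epithelium covariate and with the paired covariates, and 1 to 2 on leaving out 1 mouse. Those covariate fits called 10.2%, 0.0194% and 6.07% of all genes higher, in place of 16.5%. In Ctrl_Swim vs Ctrl, the 1 lower call became 7 with DESeq2, 0 with limma on all 3 FPKM scales, with the acinar, epithelium and paired covariates and with the fold limit, 3 with only the groups compared, 2 with the distal colon covariate, 7 without Model 1 and Model 3, and 0 to 2 on leaving out 1 mouse. In Model_Swim vs Ctrl_Swim, the 3 higher calls became 1 without the filter and with the fold limit, 0 with the adipocyte, sebaceous and paired covariates, 5 with only the groups compared and with the distal colon covariate, 6 without Model 1 and Model 3, and 0 to 6 on leaving out 1 mouse, and the 0 lower calls became 2 without Model 1 and Model 3. In Model_Swim vs Model, the 0 higher calls became 2 without Model 1 and Model 3 and 0 to 2 on leaving out 1 mouse. For the interaction, 0 calls became 3 with DESeq2, 1 with the distal colon covariate, 4 without Model 1 and Model 3 and 0 to 2 on leaving out 1 mouse. Shares of all genes moved as well. Lower calls in Ctrl_Swim vs Ctrl went from 0.801% to 2.36% with DESeq2 and to 1.65% with only the groups compared. Leaving out 1 mouse gave 0% to 1.25%. Higher calls in Model_Swim vs Ctrl_Swim went from 3.49% to 5.7% with only the groups compared and to 3.24% with the adipocyte covariate. There, leaving out 1 mouse gave 0.808% to 5.71%. The interaction gave 4.12% with DESeq2 and 1.59% with the distal colon covariate. The cause of these changes was not tested, except that the fold limit removes small changes by construction. Replicate numbers were not treated as pairs in the main fit. Deviations from the group mean, in log2 CPM over all genes tested, were correlated between mice of different groups. For same-numbered mice they correlated at -0.26 to 0.56, and 4 of 15 pairs were over 0.1. For mice with different numbers they correlated at -0.56 to 0.45. With the replicate block, 0 genes were called lower in Ctrl_Swim vs Ctrl and 0 higher in Model_Swim vs Ctrl_Swim, and the calls over all genes went from 5066 to 4321 in Model vs Ctrl, from 11 to 26 in Model_Swim vs Model, from 150 to 1 in Ctrl_Swim vs Ctrl and from 802 to 40 in Model_Swim vs Ctrl_Swim. FPKM values, which are not scaled for composition, moved the median of all genes by up to 0.11 on the log2 scale, and on that scale 15 of the 18 sterol enzymes stayed below 0 in Model vs Ctrl. With 3 mice per group, an exact permutation test of 1 gene cannot go below 0.1.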
